A study of Mus musculus with 6 samples.

Results

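The genes described here are 8 cell surface marker genes used to enrich mammary or breast cancer stem cells, Cd44, Cd24a, Prom1, Procr, Ly6a, Cd55, Tspan8 and Thy1, together with Sox9, which encodes a transcription factor of mammary stem and progenitor cells. They were chosen by name, all 9 were among the 41795 features of the count table, and all 9 passed the filter on low counts. RNA was sequenced from breast cancer cells of the mouse line FVB/N-Tg(MMTV-PyVT)634Mul/J, which carries the polyoma virus middle T antigen under the MMTV promoter, active mainly in mammary epithelium. The 2 groups were activated cancer stem cells (CSCs), with 3 libraries, and quiescent CSCs, with 3 libraries, and all 6 libraries shared this background and transgene. No age, treatment, duration of activation or sorting marker is given in the sources used here, so it is not known whether any of the 8 surface proteins served to select the cells. Whether the 3 libraries of each state represent different mice or cultures is likewise unknown; the p-values refer to the variation among these libraries, which could be technical alone.

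Stem cell enrichment in the mammary gland rests largely on antibodies against surface proteins, because no single gene separates stem cells from their progeny. CD44 is a receptor for the matrix polymer hyaluronan, and CD24 is a small, heavily glycosylated protein; human breast cancer cells that are CD44 high and CD24 low were among the first tumour cells described as CSCs. In the mouse gland, antibodies against CD24 are used together with integrin antibodies to separate luminal from basal cells. PROCR, CD55 and TSPAN8 have been used in mice to mark subsets of mammary stem or progenitor cells, while SCA-1, the product of Ly6a, marks many luminal cells. SOX9 is used by luminal progenitors, and in mouse mammary cells its forced expression together with SNAI2 has been reported to confer stem cell properties.

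Totals ran from 17785331 to 20510377 counts per library. Levels are given as CPM, counts scaled to a common library size after adjustment by the trimmed mean of M values (TMM). Mki67, a marker of cycling cells, was at 239 ± 19.4 CPM in activated and 49.8 ± 1.37 CPM in quiescent CSCs (SD, n = 3 each). Setd4, named in the study's title, was at 9.71 ± 0.371 CPM in activated and 9.54 ± 0.644 CPM in quiescent CSCs (log2 fold change 0.03, SE 0.11, adjusted p = 0.87). Of the luminal epithelial markers the most abundant gene, the keratin Krt8, was at 2319 ± 69.6 CPM in activated and 2435 ± 78.1 CPM in quiescent CSCs. This level shows epithelial RNA and is no check of the labelled breast origin. Replicate libraries were never alike within counting error (chi-square per degree of freedom 1.99 to 6.03 over their pairs), so each counted as 1 sample.

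All 9 genes differed between the states. Tspan8, Thy1, Prom1, Sox9 and Cd24a were higher in activated CSCs, and Ly6a, Procr, Cd55 and Cd44 were lower. In the comparison across 15223 genes 47.5% changed at an adjusted p under 0.05, with 24.1% higher and 23.4% lower, and the counts of 5 higher and 4 lower of 9 stand against that background. The libraries of the 2 states did not overlap for any of the 9, which was also so for 55.9% of all genes tested. The median size of the log2 fold change was 0.50 for the 9 genes and 0.24 for all genes tested. The 9 genes were chosen with earlier results of these data known, so the comparisons with all genes are descriptions alone. Only Tspan8 and Thy1 changed by at least 1 on the log2 scale, 2 of 9 genes against 10.1% of all genes. These are bulk libraries, in which fewer cells of a type and less RNA per cell cannot be told apart.

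**Figure D1:**
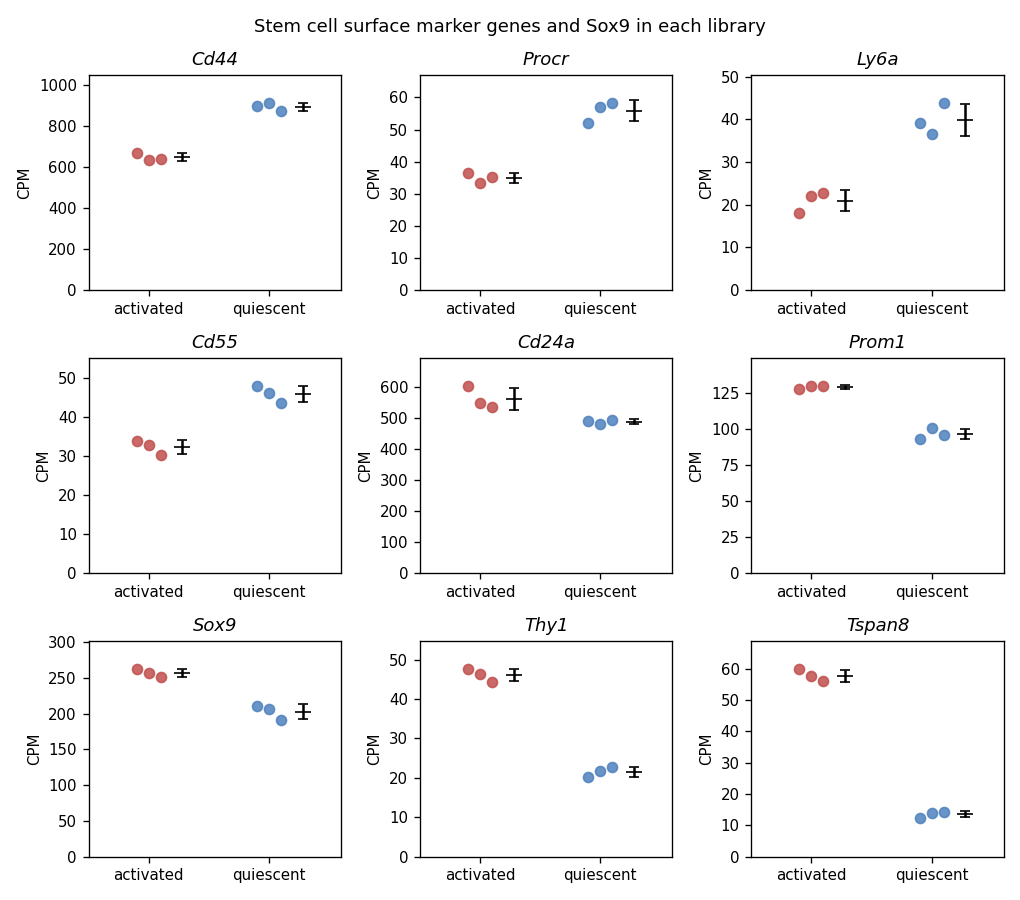
CPM of each of the 9 genes (y axis, from 0) in the 3 activated and 3 quiescent libraries (points), with the mean and SD of each state beside them (black). Cd44, Procr, Ly6a and Cd55 sit lower in activated CSCs and the other 5 genes sit higher, and for each gene the points of the states are apart, most widely for Tspan8 at 57.8 CPM in activated and 13.5 CPM in quiescent CSCs.

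Cd44 (chromosome 2, 102811141 to 102901669, minus strand, GRCm38) had 671, 638 and 640 CPM in the activated libraries, against 898, 914 and 873 CPM in the quiescent libraries. Its highest activated library thus lay below its lowest quiescent library, by 1.3-fold. The mean was 649 ± 18.6 CPM in activated and 895 ± 20.9 CPM in quiescent CSCs (SD, n = 3 each), a log2 fold change of -0.46 (SE 0.04, 95% interval -0.54 to -0.38, adjusted p = 3.3e-08). Cd44 was the most abundant of the 9 genes in CPM in both states. The counts are summed over all transcripts of the gene, so the standard and the variant exon forms of CD44 are not separated here.

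Cd24a (chromosome 10, 43579169 to 43584265, plus strand) had 602, 547 and 535 CPM in the activated libraries, against 490, 481 and 494 CPM in the quiescent libraries. Its activated libraries all lay above its quiescent libraries, but the nearest pair differed by only 1.08-fold, the narrowest gap of the 9 genes. The mean was 562 ± 35.7 CPM in activated and 488 ± 6.58 CPM in quiescent CSCs (log2 fold change 0.20, SE 0.04, 95% interval 0.11 to 0.29, adjusted p = 0.0011). Without activated replicate 1, the highest library, the log2 fold change was 0.15 and the adjusted p = 0.00023.

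Since Cd44 fell and Cd24a rose, the ratio of their counts, a measure chosen after the values were seen, was taken within each library, where no scaling between libraries enters. Cd44 had 1.11, 1.17 and 1.19 counts for each Cd24a count in the activated libraries, against 1.83, 1.9 and 1.77 in the quiescent libraries. The ratio was thus lower in every activated library, at 1.16 ± 0.0409 in activated and 1.83 ± 0.0667 in quiescent CSCs (SD, n = 3 each). The difference of the log2 ratio, activated minus quiescent, was -0.66, given as a description without a test because the ratio was formed from a gene that fell and one that rose. These are ratios of RNA counts over whole libraries, and surface protein per cell was not measured.

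**Figure D2:**
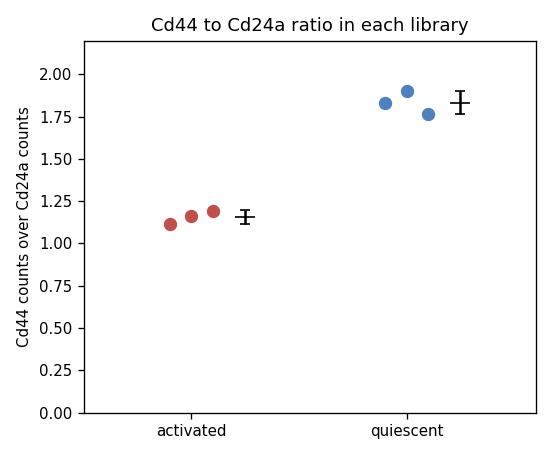
Counts of Cd44 divided by counts of Cd24a (y axis, from 0) in each of the 3 activated and 3 quiescent libraries (points), with mean and SD in black. The activated libraries lie between 1.11 and 1.19 and the quiescent libraries between 1.77 and 1.9.

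Procr, Ly6a and Cd55 fell together with Cd44. Procr encodes the endothelial protein C receptor, Ly6a encodes SCA-1, a small protein held in the membrane by a glycosylphosphatidylinositol (GPI) anchor, and Cd55 encodes decay accelerating factor, a GPI-anchored protein that protects cells from complement. Procr (chromosome 2, 155751125 to 155755478, plus strand) had 36.4, 33.4 and 35.3 CPM in the activated libraries, against 52.2, 57.0 and 58.3 CPM in the quiescent libraries. No Procr value of one state reached the range of the other. It averaged 35.0 ± 1.53 CPM in activated and 55.8 ± 3.23 CPM in quiescent CSCs (log2 fold change -0.67, SE 0.06, 95% interval -0.80 to -0.55, adjusted p = 7.2e-08).

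Ly6a (chromosome 15, 74994877 to 74998031, minus strand) had 18.1, 22.0 and 22.7 CPM in the activated libraries, against 39.1, 36.6 and 43.9 CPM in the quiescent libraries. It was the surface marker that fell furthest, to 21.0 ± 2.46 CPM in activated CSCs, against 39.8 ± 3.71 CPM in quiescent CSCs, 1.9-fold lower (log2 fold change -0.93, SE 0.09, 95% interval -1.12 to -0.73, adjusted p = 8.5e-07). It also varied most between libraries of a state, with a coefficient of variation (CV, the SD as a share of the mean) of 11.8% in activated CSCs, where counting alone gives 5.02%. In the longest Ly6a transcript 22.1% of all 31-base words also occur in other genes, foremost Ly6c1 and Ly6i. Those copies held 127 and 10 counts over all 6 libraries, against 324 to 835 Ly6a counts in each single library.

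Cd55 (chromosome 1, 130429789 to 130463021, minus strand) had 34.0, 32.9 and 30.4 CPM in the activated libraries, against 48.0, 46.2 and 43.8 CPM in the quiescent libraries. All 3 activated values lay below all 3 quiescent values. Its mean was 32.4 ± 1.87 CPM in activated and 46.0 ± 2.13 CPM in quiescent CSCs (log2 fold change -0.50, SE 0.06, 95% interval -0.64 to -0.37, adjusted p = 3.7e-06). Its copy Cd55b, which shares 14.8% of the 31-base words of the longest Cd55 transcript, had 1 count in each library.

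Promoter windows of RefSeq on GRCm38.p6, from 250 bases before to 50 after an annotated start, were held for 5 of the 9 genes. Those of Cd44, Procr and Cd55 are shown because these genes fell together, and that of Tspan8 because it changed most. Capitals mark matches, on either strand, to 6 short motifs chosen after the values were seen: TATAAA for the promoter element of that name, CCAAT for the element bound by NF-Y, GGGCGG for the GC box, TGANTCA for AP-1, ACAAAG for SOX factors and CAGGTG for an E-box bound by SNAI factors.
Cd44, chr2:102901616-102901915, minus strand: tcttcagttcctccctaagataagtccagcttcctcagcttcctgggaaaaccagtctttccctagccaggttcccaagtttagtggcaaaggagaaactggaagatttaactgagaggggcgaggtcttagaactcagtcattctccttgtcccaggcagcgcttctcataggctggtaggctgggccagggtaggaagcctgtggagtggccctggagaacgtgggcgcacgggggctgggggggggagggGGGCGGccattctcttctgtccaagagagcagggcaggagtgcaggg
Procr, chr2:155750967-155751266, plus strand: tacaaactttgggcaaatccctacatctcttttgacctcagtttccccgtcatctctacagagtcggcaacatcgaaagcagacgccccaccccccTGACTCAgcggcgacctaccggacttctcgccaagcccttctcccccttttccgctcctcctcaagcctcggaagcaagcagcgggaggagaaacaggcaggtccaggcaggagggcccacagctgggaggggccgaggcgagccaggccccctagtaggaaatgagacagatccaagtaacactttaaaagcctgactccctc
Cd55, chr1:130462695-130462994, minus strand: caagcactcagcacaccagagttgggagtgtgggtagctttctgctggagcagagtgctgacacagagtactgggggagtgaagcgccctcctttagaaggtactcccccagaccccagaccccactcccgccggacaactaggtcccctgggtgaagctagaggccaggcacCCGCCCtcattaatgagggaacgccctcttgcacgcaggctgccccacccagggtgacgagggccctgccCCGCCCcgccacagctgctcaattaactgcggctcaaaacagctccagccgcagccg
Tspan8, chr10:115817034-115817333, plus strand: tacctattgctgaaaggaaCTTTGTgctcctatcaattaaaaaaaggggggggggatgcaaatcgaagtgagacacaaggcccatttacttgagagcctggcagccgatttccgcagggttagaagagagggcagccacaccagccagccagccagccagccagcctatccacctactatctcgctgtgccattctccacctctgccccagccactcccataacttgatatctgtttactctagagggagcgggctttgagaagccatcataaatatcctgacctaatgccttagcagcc

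Among these windows no motif was shared by all of the 3 genes shown that fell. For Ly6a, which also fell, no window was held. The GC box GGGCGG occurred once in Cd44 and at 2 places in Cd55, in its reverse form CCGCCC, and 35.7% of all 32851 promoter windows hold it. The AP-1 pattern TGANTCA, with any base at N, is held by 7.81% of all windows and read TGACTCA in Procr. Prom1, which rose, holds this pattern in both of its windows, as TGACTCA in 1 and as TGAATCA in the other. The window with TGACTCA also holds the GC box. The Prom1 windows are not shown, and neither motif was limited to genes that fell. The SOX motif occurred in Tspan8 in its reverse form CTTTGT, and 18.7% of all windows hold it. These matches are letters in a window and describe no binding.

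Tspan8 and Thy1 rose most. Tspan8 encodes a tetraspanin, one of a family of proteins that cross the membrane repeatedly and organise other surface proteins, and Thy1 encodes a GPI-anchored protein of T cells, neurons, fibroblasts and some mammary epithelial cells. Tspan8 (chromosome 10, 115816817 to 115849893, plus strand) had 59.8, 57.5 and 56.0 CPM in the activated libraries, against 12.4, 14.0 and 14.2 CPM in the quiescent libraries. Even the nearest pair of libraries differed by 3.93-fold. Tspan8 rose 4.26-fold, to 57.8 ± 1.92 CPM in activated CSCs, against 13.5 ± 1.02 CPM in quiescent CSCs (log2 fold change 2.09, SE 0.07, 95% interval 1.95 to 2.24, adjusted p = 1.7e-13), more in size than 97.9% of all genes tested.

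Thy1 (chromosome 9, 44043384 to 44048579, plus strand) had 47.5, 46.3 and 44.4 CPM in the activated libraries, against 20.2, 21.6 and 22.7 CPM in the quiescent libraries. The activated values were all at least 1.96-fold above every quiescent value. Thy1 rose 2.14-fold, to 46.1 ± 1.58 CPM in activated CSCs, against 21.5 ± 1.23 CPM in quiescent CSCs (log2 fold change 1.10, SE 0.07, 95% interval 0.96 to 1.23, adjusted p = 4.2e-10). Of 12 fibroblast markers 10 rose in the same libraries and 0 fell, with a summed level of 1647 to 1752 CPM in activated and 933 to 958 CPM in quiescent libraries. The most abundant of them, the collagen gene Col1a1, was at 592 ± 69.4 CPM in activated and 269 ± 6.87 CPM in quiescent CSCs, while Pdgfra, a growth factor receptor of fibroblasts, was at 40.1 ± 3.19 CPM in activated and 39.0 ± 1.89 CPM in quiescent CSCs (adjusted p = 0.67). The part of fibroblast RNA in the Thy1 result was not tested. The 10 T and NK cell markers summed to 1.32 to 1.79 CPM in activated and 0.758 to 1.35 CPM in quiescent libraries, with Cd3g, Gzmb and Ncr1 at 0 in all 6.

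Prom1 encodes prominin-1 (CD133), a membrane protein of cell protrusions. Prom1 (chromosome 5, 43993621 to 44102250, minus strand) had 128, 130 and 130 CPM in the activated libraries, against 93.6, 101 and 95.9 CPM in the quiescent libraries. The activated libraries had a CV of 0.965%, where counting alone gives 2.02%, and all lay above the quiescent ones. The mean was 129 ± 1.25 CPM in activated and 96.8 ± 3.69 CPM in quiescent CSCs (log2 fold change 0.42, SE 0.04, 95% interval 0.33 to 0.51, adjusted p = 4.2e-07). Within 100000 bases of Prom1 lies the pseudogene Gm7879, which had 59, 63 and 21 counts in activated and 21, 48 and 37 counts in quiescent libraries. Prom1 shared no 31-base word with another gene.

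Sox9 (chromosome 11, 112782210 to 112787757, plus strand) had 262, 257 and 251 CPM in the activated libraries, against 211, 206 and 191 CPM in the quiescent libraries. The states did not overlap, with the nearest libraries 1.19-fold apart. Sox9 rose 1.27-fold, to 257 ± 5.67 CPM in activated CSCs, against 203 ± 10.4 CPM in quiescent CSCs (log2 fold change 0.34, SE 0.04, 95% interval 0.25 to 0.43, adjusted p = 3.3e-06). The size of this change was larger than that of 62.7% of all genes tested.

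**Figure D3:**
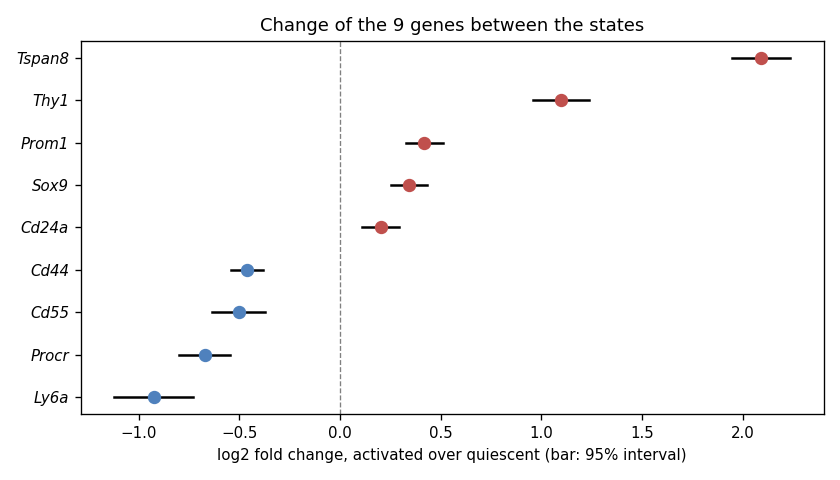
Log2 fold change of the 9 genes, activated over quiescent (points), with 95% intervals from the edgeR fit (bars). Tspan8 at 2.09 and Thy1 at 1.10 lie apart from the other rising genes, which lie between 0.20 and 0.42, and Ly6a at -0.93 is the lowest.

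The way a protein is held in the membrane did not separate the genes that rose from those that fell. Of the 4 genes for GPI-anchored proteins, Thy1 and Cd24a rose and Ly6a and Cd55 fell. Of the 4 genes for proteins that cross the membrane, Tspan8 and Prom1 rose and Cd44 and Procr fell.

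Levels between genes were compared as CPM per kilobase of the gene length given in the count table. In activated CSCs the order was Cd24a at 309 ± 19.7, Cd44 at 113 ± 3.24, Sox9 at 62.0 ± 1.37, Tspan8 at 32.9 ± 1.09, Thy1 at 26.5 ± 0.909, Prom1 at 21.5 ± 0.208, Ly6a at 20.9 ± 2.46, Procr at 19.2 ± 0.842 and Cd55 at 2.65 ± 0.153 CPM per kb. Prom1 and Ly6a overlapped there, as did Ly6a and Procr. In quiescent CSCs it was Cd24a at 269 ± 3.62, Cd44 at 156 ± 3.64, Sox9 at 48.9 ± 2.51, Ly6a at 39.8 ± 3.7, Procr at 30.7 ± 1.77, Prom1 at 16.1 ± 0.614, Thy1 at 12.4 ± 0.709, Tspan8 at 7.71 ± 0.58 and Cd55 at 3.76 ± 0.175 CPM per kb, with no overlap between neighbours. Cd24a, Cd44 and Sox9 were thus the 3 highest in both states. Tspan8 stood next after them in activated CSCs and next to last in quiescent CSCs.

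The places of Cd55 and Prom1 depend on the length used, and on the longest transcript Prom1, at 31.6 CPM per kb in activated CSCs, stood above Thy1 at 26.5. The table gives Cd55 12229 bases, whereas its longest GENCODE M21 transcript has 3133. Per kb of that transcript Cd55 was at 10.3 ± 0.596 CPM in activated and 14.7 ± 0.681 CPM in quiescent CSCs, and in quiescent CSCs it then stood above Thy1 and Tspan8. The 3 highest genes stayed in their order.

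**Figure D4:**
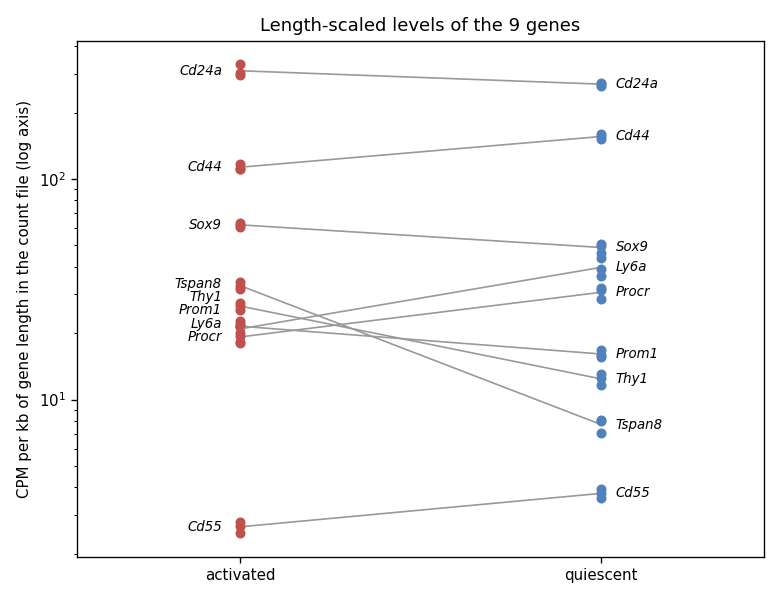
CPM per kb of gene length (log axis) of the 9 genes in activated (left) and quiescent (right) libraries, one point per library, with lines joining the state means. Cd24a, Cd44 and Sox9 lead in both states, and Tspan8 and Thy1 change places with Ly6a and Procr.

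Genes around these markers were described in 9 lists. Without the 9 genes themselves the lists held 166 tested genes, of which 54 were higher in activated CSCs, 55 were lower and 57 missed the threshold. Across all genes tested 24.1% were higher and 23.4% lower, which is the background for the counts of every list and marker set. The median log2 fold change of the list genes was -0.04, against -0.003 for all genes tested. Genes named in the following paragraphs were the 3 lowest in adjusted p of a list. Exceptions chosen after their values were seen were Aldh1a3, Itga6, Spp1, Has2, Esrp1, Ly6e, Cr1l, Thbd, Prom2, Sox10, Snai2, Pdgfra, Pecam1, Krt17, Krt18, Krt19, Cldn4, S100a9 and Cxcr2. Unlike them, Alcam and Tmem2 were named as the genes most similar to a marker.

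Of 34 other mammary stem and progenitor markers 17 rose, 10 fell and 7 did not pass (median 0.20 on the log2 scale). Kit, a receptor of luminal progenitors, was at 173 ± 1.13 CPM in activated and 71.7 ± 2.71 CPM in quiescent CSCs. The alveolar transcription factor gene Elf5 was at 230 ± 10.6 CPM in activated and 97.4 ± 2.02 CPM in quiescent CSCs, and the Notch ligand gene Dll1 at 73.2 ± 1.23 CPM in activated and 27.5 ± 1.18 CPM in quiescent CSCs. Aldh1a3, an aldehyde dehydrogenase of luminal progenitors, fell to 177 CPM in activated CSCs, against 293 CPM in quiescent CSCs. Itga6, the integrin used beside CD24 to sort mouse mammary cells, was at 465 CPM in activated and 482 CPM in quiescent CSCs (adjusted p = 0.24).

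Genes acting with CD44 also split, with 13 of 26 rising, 8 falling and 5 not passing (median 0.13). Slc7a11, a cystine transporter stabilised by a CD44 variant, was at 66.8 ± 2.13 CPM in activated and 627 ± 29.0 CPM in quiescent CSCs (log2 fold change -3.23, SE 0.05, adjusted p = 1.5e-17). Spp1, which encodes the CD44 ligand osteopontin, fell by 0.50 on the log2 scale. Hmmr, a second hyaluronan receptor that also acts in mitosis, rose 6.33-fold, to 61.8 ± 5.01 CPM in activated CSCs, against 9.74 ± 1.28 CPM in quiescent CSCs, and Mmp9, a protease that can bind CD44, rose 4.29-fold. The hyaluronan synthase gene Has2 was at 45.6 CPM in activated and 27.4 CPM in quiescent CSCs (adjusted p = 7e-08). Esrp1, a splicing factor that promotes the CD44 variant form, rose by a log2 fold change of 0.28 (adjusted p = 5.2e-06).

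Of 30 genes of GPI anchor synthesis and remodelling 2 rose, 12 fell and 16 did not pass (median -0.17). Piga, a subunit of the enzyme of the first step, rose 1.57-fold, to 15.5 ± 0.538 CPM in activated CSCs, against 9.88 ± 0.44 CPM in quiescent CSCs. Pigf was at 6.68 ± 0.557 CPM in activated and 11.4 ± 0.844 CPM in quiescent CSCs, and Pigw at 6.36 ± 0.751 CPM in activated and 10.8 ± 0.52 CPM in quiescent CSCs. Both act in later steps. Among 9 other tested genes of the LY6 group 1 rose, 4 fell and 4 did not pass (median -0.18). Plaur, which encodes the urokinase receptor, was at 58.8 ± 1.39 CPM in activated and 148 ± 4.25 CPM in quiescent CSCs. Lypd3 was at 74.7 ± 6.99 CPM in activated and 119 ± 4.81 CPM in quiescent CSCs, and Lynx1 at 9.47 ± 1.68 CPM in activated and 14.6 ± 0.751 CPM in quiescent CSCs. Ly6e, a neighbour of Ly6a on chromosome 15, was far more abundant, at 2008 CPM in activated and 2273 CPM in quiescent CSCs (log2 fold change -0.18, adjusted p = 0.00099).

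Complement genes other than Cd55 gave 4 higher, 2 lower and 3 not past of 9 tested (median 0.18). Clu, which encodes clusterin, was at 2911 ± 58.3 CPM in activated and 1569 ± 48.0 CPM in quiescent CSCs. C3, the central complement component, was at 476 ± 29.9 CPM in activated and 336 ± 13.6 CPM in quiescent CSCs. Cr1l, which encodes the rodent membrane regulator CRRY, fell by 0.22 on the log2 scale (adjusted p = 0.0031). Around Procr, 7 of 16 protein C and coagulation genes rose, 6 fell, among them Plaur, which is also in the LY6 list, and 3 did not pass (median 0.05). Tfpi2, a protease inhibitor, rose 4.82-fold, to 88.6 ± 3.63 CPM in activated CSCs, against 18.4 ± 0.495 CPM in quiescent CSCs. F2rl1, a protease-activated receptor, was at 90.3 ± 3.9 CPM in activated and 164 ± 5.43 CPM in quiescent CSCs. Thbd, thrombomodulin, which works with PROCR in activating protein C, was at 11.9 CPM in activated and 25.2 CPM in quiescent CSCs (log2 fold change -1.08, adjusted p = 3.9e-08).

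Procr and Ly6a are also used by endothelial cells. The 10 endothelial markers summed to 14.7 to 17.7 CPM in activated and 16.6 to 19.1 CPM in quiescent libraries, with 0 rising, 1 falling and 5 not passing among 6 tested. Eng, the most abundant, was at 10.1 ± 0.702 CPM in activated and 10.3 ± 0.766 CPM in quiescent CSCs, and Pecam1 was at 0.577 CPM in activated and 0.675 CPM in quiescent CSCs, with Cldn5 at 0 in all 6 libraries. Of 12 myeloid markers 6 rose, 1 fell and 5 did not pass. They summed to 480 to 485 CPM in activated and 366 to 407 CPM in quiescent libraries. Their part in the results was not tested. Of 12 luminal markers 5 rose, 5 fell and 2, the keratin genes Krt8 and Krt18, did not pass, with sums of 8099 to 8303 CPM in activated and 9430 to 9843 CPM in quiescent libraries. The tight junction gene Cldn4 was at 500 ± 45.3 CPM in activated and 1215 ± 46.4 CPM in quiescent CSCs, whereas the keratin gene Krt19 was at 341 ± 2.44 CPM in activated and 126 ± 5.57 CPM in quiescent CSCs. Of 9 basal markers 4 rose, 1 fell and 4 did not pass, with sums of 920 to 971 CPM in activated and 1009 to 1083 CPM in quiescent libraries. The 1 that fell was the keratin gene Krt17, at 235 ± 6.07 CPM in activated and 486 ± 18.2 CPM in quiescent CSCs. The sums were thus lower in activated libraries although more basal markers rose than fell. Of 7 pericyte markers 3 rose, 3 fell and 1 did not pass, with sums of 211 to 231 CPM in activated and 191 to 194 CPM in quiescent libraries. The neutrophil markers summed to 56.4 to 73.4 CPM in activated and 55.0 to 59.1 CPM in quiescent libraries, nearly all of it S100a8, at 65.6 ± 8.76 CPM in activated and 54.3 ± 1.84 CPM in quiescent CSCs (adjusted p = 0.023). That call was lost without activated replicate 2 or 3 or without any of the 3 quiescent libraries, with adjusted p between 0.055 and 0.097. The other tested neutrophil marker, S100a9, fell, to 0.245 ± 0.0414 CPM in activated CSCs, against 1.74 ± 0.159 CPM in quiescent CSCs (adjusted p = 3.5e-06), and Cxcr2, not tested, had 1, 1 and 0 counts in activated and 8, 20 and 18 counts in quiescent libraries. B cell, erythroid and adipocyte markers summed to at most 0.383, 0.986 and 3.52 CPM in activated and 0.45, 0.675 and 3.9 CPM in quiescent libraries.

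Of 25 other tested tetraspanin genes 3 rose, 9 fell and 13 did not pass (median -0.14), while 24.1% of all genes tested rose and 23.4% fell. Tspan2 was at 46.9 ± 1.35 CPM in activated and 25.1 ± 0.54 CPM in quiescent CSCs. Cd9 was at 531 ± 17.7 CPM in activated and 789 ± 18.3 CPM in quiescent CSCs, and Cd151, whose product binds integrins, at 287 ± 22.0 CPM in activated and 459 ± 18.0 CPM in quiescent CSCs. In the prominin and protrusion list 3 of 8 other genes rose, 2 fell and 3 did not pass (median 0.07). The cadherin-related gene Cdhr1 rose 5.45-fold, to 52.7 ± 1.56 CPM in activated CSCs, against 9.67 ± 1.19 CPM in quiescent CSCs, and Cdhr2, a gene of microvilli, rose 2.22-fold. Ttyh2, of the tweety family of membrane proteins, was at 47.7 CPM in activated and 73.8 CPM in quiescent CSCs. Prom2, the paralog of Prom1, was lower in activated CSCs, at 37.3 CPM against 53.3 CPM in quiescent CSCs (log2 fold change -0.51, adjusted p = 9.7e-07).

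Of 12 other tested SOX genes and Snai2, 5 rose, 3 fell and 4 did not pass (median 0.41). Sox10, which is of the same SOX subgroup as Sox9, was more abundant in CPM and also rose, to 544 CPM in activated CSCs, against 440 CPM in quiescent CSCs (log2 fold change 0.31, adjusted p = 0.00089). Sox4 was at 512 ± 12.8 CPM in activated and 594 ± 19.2 CPM in quiescent CSCs. Sox13 was at 32.2 ± 1.16 CPM in activated and 21.2 ± 1.7 CPM in quiescent CSCs, and Sox11 at 3.91 ± 0.433 CPM in activated and 1.56 ± 0.535 CPM in quiescent CSCs. Snai2, the partner of Sox9 in mouse mammary cells, was near the bottom of the tested range at 2.26 CPM in activated and 1.64 CPM in quiescent CSCs (adjusted p = 0.12). Sox9 shared 1.12% of its 31-base words with other genes, Sox10 among them.

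**Figure D5:**
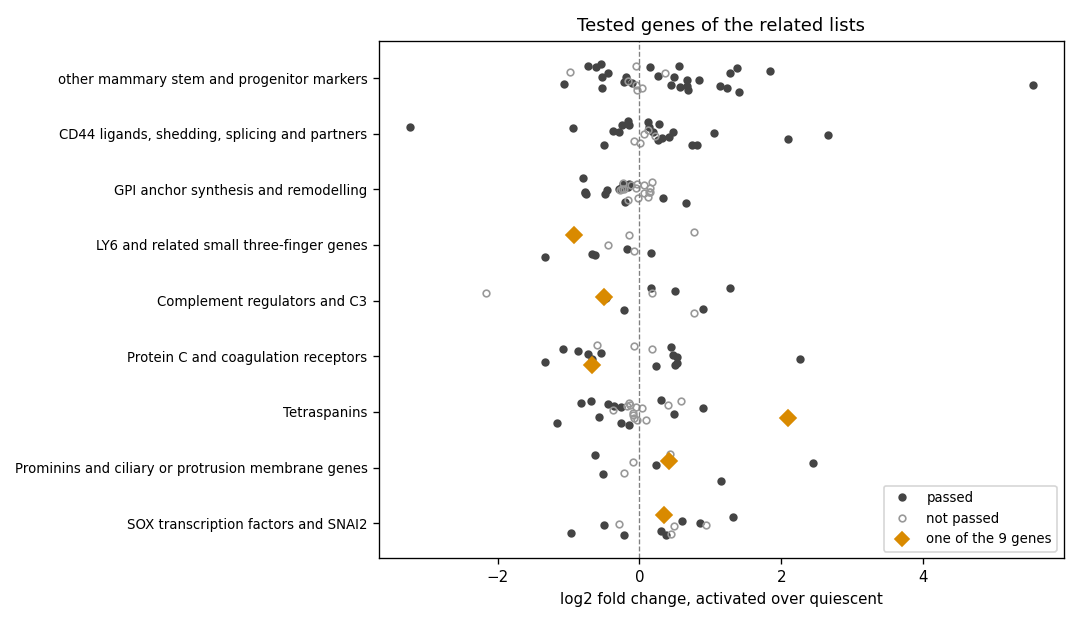
Log2 fold change, activated over quiescent, of the tested genes of the 9 lists (filled points passed, open points did not), with members of the 9-gene set as orange diamonds; vertical scatter within a list carries no value. Tspan8 at 2.09 lies furthest right among the tetraspanins, and Ly6a at -0.93 lies left of most LY6 genes.

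For each of the 9 genes the protein-coding gene with the most similar profile was named by Pearson's r of log2 CPM over the 6 libraries, as a description. Since the libraries form 2 states, many genes are similar by this measure, from 233 of 13390 genes with r over 0.95 for Cd24a to 1762 for Tspan8. The most similar genes were Slc25a37 for Cd44, Rpl4 for Cd24a, Gxylt2 for Prom1, Osbpl5 for Procr, Sirt7 for Ly6a, Alcam for Cd55, Tmem2 for Tspan8, Hmmr for Thy1 and Mob3b for Sox9, with r between 0.9961 for Rpl4 and 0.9999 for Tmem2. Alcam, itself an adhesion molecule of the stem and progenitor list, was at 78.4 ± 5.68 CPM in activated and 113 ± 4.49 CPM in quiescent CSCs. Tmem2, a cell surface hyaluronidase, was at 122 ± 0.598 CPM in activated and 101 ± 1.09 CPM in quiescent CSCs. Pearson's r takes no account of the size of a change, and Tmem2 rose 1.2-fold where Tspan8 rose 4.26-fold.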

How the data were processed

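The authors deposited raw, whole-number counts per gene for 6 libraries, as the file headers and values show. Per the submitters' processing notes the tools included featureCounts 1.5.0-p3, HISAT2 2.0.5 and StringTie 1.3.3b. Whether counting used strand is not stated there, so reads of overlapping genes on opposite strands cannot be told apart; such partners of Cd55 (Gm15674), Ly6a (Gm28068) and Tspan8 (LOC108167758) held 55, 17 and 3 counts in all. Chromosome accessions are those of GRCm38, and 96.4% of feature identifiers matched a RefSeq table of that build. From the counts, edgeR 4.0.16 (R 4.3.3) gave a robust quasi-likelihood test after TMM scaling and filterByExpr, with Benjamini-Hochberg adjustment across every tested gene and a cutoff of 0.05; each adjusted p is from this test. CPM use the same scaled totals and the SD covers 3 libraries. The 9 genes had 220 to 16895 counts per library, for which counting alone gives a CV of 0.779 to 6.32%. Members and lists were chosen with earlier results of these data known. The named genes were the 9 members, up to 3 genes per list with the smallest adjusted p, the most abundant gene of each of 11 marker lists, the most similar gene of each member, Mki67 and Setd4; 1 gene so chosen is not reported here. The fit was also run on simulated counts with the same spread set for every gene, and no result given here rests on that run. Alternatives were other scalings, filters and thresholds, DESeq2 1.42.0, limma-voom (limma 3.58.1), protein-coding genes alone, no genes of unstable counts, a replicate block, and fits that omit a library in turn.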

Additional observations from a re-analysis of the deposited data

How the results depend on the processing

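Under each of 17 alternatives, 5 of the 9 genes were higher and 4 lower in activated CSCs, with the directions given above. Their log2 fold changes ranged from 2.03 to 2.13 for Tspan8, 1.05 to 1.13 for Thy1, 0.39 to 0.45 for Prom1, 0.30 to 0.37 for Sox9, 0.15 to 0.24 for Cd24a, -0.48 to -0.45 for Cd44, -0.54 to -0.46 for Cd55, -0.72 to -0.64 for Procr and -0.99 to -0.83 for Ly6a. The highest adjusted p of any of them was 0.0093, for Cd24a without quiescent replicate 2. The number of genes changed ran from 5557 (adjusted p under 0.01) to 7700 (no filter beyond 1 count), and from 6387 to 7359 when each library was left out. With the replicate number as a block 7042 genes changed, the 9 among them. Same-numbered libraries of the 2 states did not deviate together (correlations 0.008, -0.03 and 0.044), so the numbers were not taken as pairs. Among 78 other genes followed, 5 lost or gained a call under some alternative, Notch3, S100a8, Rpl4, Ptprc and Itgb1, and 0 changed direction. The 95% intervals of log2 fold changes come from the fit and cover the variation between these libraries. Genes near 1 CPM rest on about 20 counts a library.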

Other observations

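Around the 9 genes, 21 other tested genes lay within 100000 bases, of which 6 rose, 8 fell and 7 did not pass. Of all genes tested 24.1% were higher and 23.4% lower. BC006965, a long noncoding RNA gene near Sox9, was at 91.3 ± 4.64 CPM in activated and 55.8 ± 2.4 CPM in quiescent CSCs (log2 fold change 0.71, SE 0.05, adjusted p = 1.1e-08), a larger change than that of Sox9. Slc1a2, a glutamate transporter gene near Cd44, rose 1.82-fold, to 12.5 ± 0.697 CPM in activated CSCs, against 6.86 ± 0.588 CPM in quiescent CSCs, while Cd44 fell. Mmp24, a membrane protease gene near Procr, was at 0.963 ± 0.281 CPM in activated and 3.63 ± 0.84 CPM in quiescent CSCs (log2 fold change -1.91, SE 0.26, adjusted p = 1.1e-05). Fgfbp1, a growth factor carrier gene near Prom1, was at 1.28 ± 0.0917 CPM in activated and 3.54 ± 0.267 CPM in quiescent CSCs, while Prom1 rose. These genes were chosen after their values were seen, and no relation to the neighbouring marker was tested.

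The basal regulator gene Trp63 rose to 25.1 ± 1.38 CPM in activated CSCs, against 6.56 ± 1.29 CPM in quiescent CSCs, whereas the basal keratin gene Krt5 was at 8.32 ± 0.961 CPM in activated and 8.5 ± 0.802 CPM in quiescent CSCs (adjusted p = 0.87). Lgr5, a receptor gene of rare mammary stem cells, had 2.84 ± 0.45 CPM in activated and 0.0525 ± 0.091 CPM in quiescent CSCs (SD, n = 3 each). These 3 genes too were chosen after their values were seen.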
